A study of Rattus norvegicus with 24 samples.

Results

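The branched-chain amino acid breakdown enzymes were 10 genes: Bcat2, Bckdha, Bckdhb, Dbt, Bckdk, Ivd, Mccc1, Mccc2, Hibadh and Auh. They were found by gene symbol in a table of transcript values from rat muscle, where they held 12 of 20027 transcripts, and the transcripts of a gene were summed. The table held 15273 gene symbols, of which 11196 passed a filter on low values (at least 1 in at least 3 muscles) and were tested, all 10 enzymes among them. The RNA came from the tibialis anterior, the muscle on the front of the lower leg that lifts the foot, of 12 adult male Wistar rats. A pulse generator implanted in each animal made the left muscle contract daily against its own antagonists, a form of resistance training, for 2, 10, 20 or 30 days (3 rats each). The right muscle of the same rat was not stimulated and served as the contralateral control, giving 24 muscles in all. The control muscles came from animals that carried the implant too. All were implanted under isoflurane with an injection of the antibiotic enrofloxacin and one of the analgesic buprenorphine into the right quadriceps, on the side of the control muscle, and no transgene is named for any group. The contralateral leg bore the weight of the same trained animal, so it is a control within the animal and not a muscle from an untrained one. Trained muscles were taken shortly after the last bout of exercise, so each value holds the effect of that bout as well as of the days of training before it.

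Leucine, isoleucine and valine are the branched-chain amino acids, and skeletal muscle is a main site of their first breakdown steps. A mitochondrial aminotransferase moves the amino group to 2-oxoglutarate, and the branched-chain oxoacid dehydrogenase complex then removes the carboxyl group irreversibly. That complex has an E1 part made of alpha and beta subunits, an E2 core and an E3 part shared with other dehydrogenases, and it is switched off when a dedicated kinase phosphorylates E1 alpha. Separate chains of mitochondrial enzymes carry the products of leucine, isoleucine and valine on towards the tricarboxylic acid (TCA) cycle and ketone bodies.

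The deposited values share the same total in each muscle and were read as of the TPM type, that is scaled for transcript length. The study's methods name median-of-ratios normalization instead. Levels are set side by side between genes on the TPM reading, and the length scaling itself was not tested. The values keep no read counts. The study's methods give a lower bound on reads per sample, and the counting precision of a single value cannot be had from the table. Each muscle was rescaled by a median-of-ratios factor (0.778 to 1.14). Changes are given as log2 fold changes, trained minus control, of the value plus 1, which understates changes of genes with low values. They were tested with limma against all 12 contralateral muscles, with adjustment over all 11196 genes and a threshold of 0.05 on the adjusted p. The 6 muscle fibre genes Ckm, Acta1, Tnnt3, Tnni2, Mylpf and Pvalb, listed for fast fibres, were abundant in all muscles (summed level 48127 to 85413). Not all 6 are confined to fast fibres, so their sum does not measure fast-fibre content. Within that list Pvalb, the calcium buffer of fast fibres, fell at all 4 time points (-0.98, -2.27, -3.23 and -3.16 on the log2 scale), and 2, 3, 3 and 2 of the 6 were lower and 0, 2, 0 and 0 higher. The 6 slow-fibre markers Myh7, Tnnt1, Tnni1, Tnnc1, Myl2 and Myl3 summed to 1110 to 2304 in controls and to 721 to 1079, 577 to 1840, 1121 to 1355 and 918 to 1621 after 2, 10, 20 and 30 days. Of these 3, 1, 0 and 0 were lower and none higher by the test described above, with medians of -0.64, -0.31, -0.15 and -0.29. The summed level of 8 macrophage markers was 9.41 to 26.4 in control and 26.6 to 71.2 in trained muscles, with none at 0 in any group, and that of 5 fibroblast markers was 74.6 to 253 against 301 to 982. Transcripts encoded by mitochondrial DNA took 27.8% to 43.7% of the total in controls, 24.9% to 28.5% after 2 days, 23.4% to 27.4% after 10 days, 31.1% to 35.5% after 20 days and 39.9% to 43.9% after 30 days. The highest control share belonged to the contralateral muscle of rat 1 of the 30-day group, which stood apart from the other 11 controls.

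In the contralateral muscles the 10 enzymes lay within a range of 14.1 to 95.1 in scaled TPM-type value. Bckdk, the kinase that inactivates the dehydrogenase complex, had the highest level at 95.1 ± 6.76 (SD, n = 12), and exceeded the next gene in 12 of 12 muscles. Hibadh, of the valine chain, followed at 69.3 ± 8.06, Bckdhb (E1 beta) at 65.5 ± 9.44 and Ivd, of the leucine chain, at 64.2 ± 5.92, and these neighbours did not differ beyond their spread, with the higher one leading in 8 and in 7 of 12 muscles. Bckdha (E1 alpha) lay at 51.3 ± 6.54. Bcat2, the mitochondrial aminotransferase, at 41.0 ± 7.10 and Auh at 38.5 ± 3.82 could not be ordered, since Bcat2 was the higher in 7 of 12 muscles. Mccc2 at 29.6 ± 2.47, Dbt (E2) at 18.6 ± 1.28 and Mccc1 at 14.1 ± 1.34 were lower in that order in 12 of 12 muscles each. The mRNA of the kinase thus stood above those of the E1 and E2 subunits of the complex, of which E2 was the scarcest, while Dld, the shared E3 subunit and no member, lay at 108 ± 10.4.

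The windows upstream of Bcat2, Dbt and Bckdk are shown because Bcat2 and Dbt had the largest decreases of the 10 over the mean of the 4 time points, where Bckdk was the one member that was not lower. They are the 250 bases before the start site given by RefSeq in GRCr8: chr1:105178889-105179138 on the + strand for Bcat2, chr2:207166410-207166659 on the + strand for Dbt and chr1:191945559-191945808 on the + strand for Bckdk. The Bcat2 window lies inside the annotated span of its own gene, since the start site used is 3982 bases from the gene's first base. Capitals mark CACCC and GGGCGG on either strand, the CACCC box and GC box to which Krüppel-like and Sp-family zinc finger factors are known to bind.
Bcat2: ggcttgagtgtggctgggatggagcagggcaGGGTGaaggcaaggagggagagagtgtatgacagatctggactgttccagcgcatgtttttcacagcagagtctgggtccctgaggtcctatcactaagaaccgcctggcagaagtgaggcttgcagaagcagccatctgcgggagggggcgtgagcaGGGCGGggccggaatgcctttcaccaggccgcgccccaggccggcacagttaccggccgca
Dbt: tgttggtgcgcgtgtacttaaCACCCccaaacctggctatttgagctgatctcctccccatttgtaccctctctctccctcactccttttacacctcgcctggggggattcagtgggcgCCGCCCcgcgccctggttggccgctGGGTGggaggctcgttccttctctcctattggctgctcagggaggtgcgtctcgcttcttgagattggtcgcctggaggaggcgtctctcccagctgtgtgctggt
Bckdk: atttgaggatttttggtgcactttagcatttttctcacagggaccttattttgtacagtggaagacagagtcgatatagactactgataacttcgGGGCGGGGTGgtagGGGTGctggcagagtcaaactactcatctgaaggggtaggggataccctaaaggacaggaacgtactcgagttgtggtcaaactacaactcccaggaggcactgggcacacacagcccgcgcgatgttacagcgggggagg
A window was found for 8 of the 10 enzymes, all but Bckdha and Mccc2. CACCC stood in 7 of these 8 windows, against 49.2% of the 33469 windows of the same length in the table, and GGGCGG in 7 of 8 against 30.5%. In the Bckdk window a copy of each motif overlaps the other. AAGGTCA, an element bound by oestrogen-related receptors, was in 0 of 8 (3.99% of all windows) and the E-box CACGTG in 0 of 8 (5.59%). These are matches of letters in a window and say nothing of binding.

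After 2 days of training 9 of the 10 enzymes had fallen against the 12 contralateral muscles, where 13.5% of all genes tested were lower. Their median log2 fold change was -0.45, beside -0.01 over all genes, and the changes ran from -0.29 for Auh to -0.84 for Bcat2. Bckdha alone missed the threshold (-0.34 ± 0.14 SE, adjusted p = 0.0755). The count rested in part on rat 2, the animal with the lowest trained value of each of the 10 enzymes: without it 4 of 10 fell (Bcat2, Dbt, Mccc2 and Hibadh), and the genes called lower over the whole table went from 1507 to 586. Without the contralateral muscle that stood apart, all 10 fell. On the values as deposited 4 fell, where the median of all genes was 0.07. In bulk RNA, fewer cells of a type and less RNA per cell cannot be told apart, and the part that the macrophage, fibroblast and fibre-type markers or the mitochondrial share given above had in these changes was not tested.

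After 10 days 8 of 10 enzymes were lower, where 13.3% of all genes were, with a median of -0.51 beside -0.03 over all genes. Bcat2 (-1.36) and Dbt (-0.98) had moved furthest, and Auh (-0.26 ± 0.10, adjusted p = 0.0535) and Bckdk (0.03 ± 0.12, adjusted p = 0.907) did not pass. Leaving out single trained muscles gave 6 to 9 decreases, with Bckdha lost without rat 1 (-0.38, adjusted p = 0.119) or rat 3 (-0.41, adjusted p = 0.0809) and Bckdhb without rat 1 (-0.42, adjusted p = 0.0501). Without rat 2 (-0.33, adjusted p = 0.0421), or without the contralateral muscle that stood apart (-0.27, adjusted p = 0.0412), Auh passed as well. The values as deposited gave 5 decreases, where the median of all genes was 0.07.

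After 20 days 5 enzymes were lower, Bcat2, Dbt, Mccc2, Ivd and Auh, where 9.64% of all genes were, and the median was -0.28 beside -0.03 over all genes. With the animal as a block in the fit 3 were lower, since Ivd (adjusted p = 0.0747) and Auh (-0.25, adjusted p = 0.204) no longer passed. The same calls were lost without rat 1 (Ivd adjusted p = 0.0694, Auh adjusted p = 0.0522) or without rat 3 (Ivd adjusted p = 0.11, Auh adjusted p = 0.165), each of which left 3. The values as deposited also gave 3.

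After 30 days 5 enzymes were lower, Bcat2, Dbt, Ivd, Mccc1 and Bckdha, where 9.46% of all genes were, and the median was -0.36 beside -0.01 over all genes. With the animal as a block only Bcat2 and Dbt were, since Bckdha (-0.31, adjusted p = 0.258), Ivd (-0.38, adjusted p = 0.075) and Mccc1 (-0.33, adjusted p = 0.166) lost the call. Without rat 3 the count was 3, with Bckdha (adjusted p = 0.196) and Mccc1 (adjusted p = 0.181) lost. Without the contralateral muscle that stood apart it was 6, with Mccc2 gained (-0.25, adjusted p = 0.0445). On the values as deposited 9 enzymes were lower, but there the median of all genes was itself -0.18, in the group with the highest mitochondrial share. Of all genes, 647 rose and 2590 fell on that scale, against 1245 and 1059 after rescaling.

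**Figure D1:**
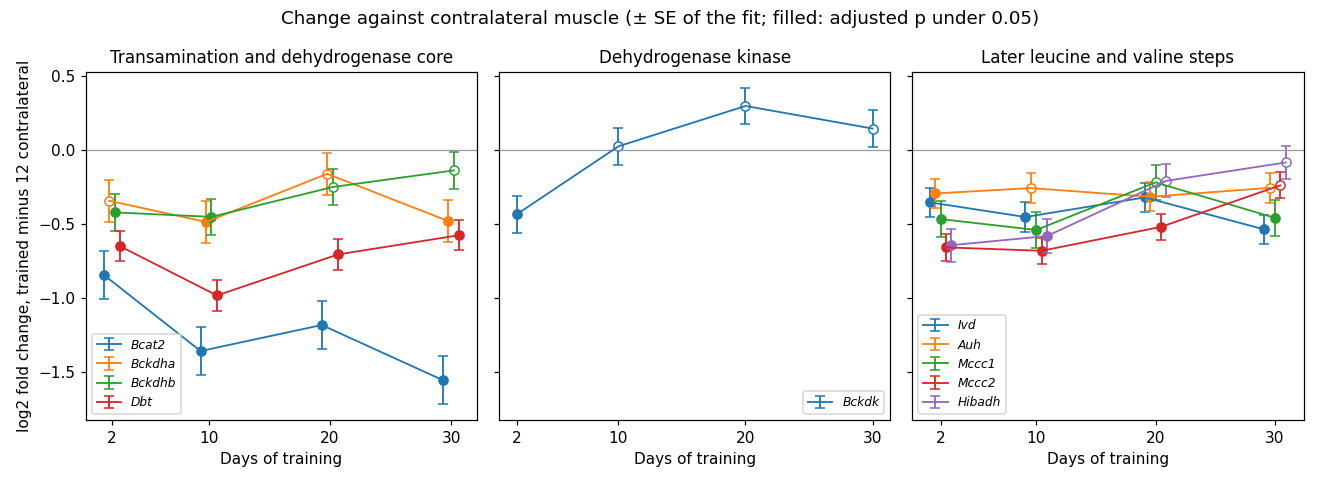
Log2 fold change (y axis, trained minus the 12 contralateral muscles, log2 of value plus 1) of the 10 enzymes against days of training (x axis), in 3 panels by role. Error bars are the standard error of the fit and filled points passed an adjusted p of 0.05. Bcat2 lies lowest at every time point and Dbt next at 10, 20 and 30 days (at 2 days Mccc2, at -0.66, is just below Dbt, at -0.65), and Bckdk goes from -0.43 at 2 days to 0.30 at 20 days.

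Over the mean of the 4 trained groups 9 of the 10 enzymes were lower, where 20.3% of all genes were, in every alternative tried, and Bckdk was at 0.01 ± 0.08 (adjusted p = 0.943). The 9 decreases ran from -0.28 for Auh and -0.31 for Bckdhb through -0.52 for Mccc2 and -0.73 for Dbt to -1.23 for Bcat2. Bcat2, Dbt and Ivd passed at each of the 4 time points, as did 2.95% of all genes tested (330 of 11196). Within animals, the trained muscle lay below its own contralateral muscle in 12 of 12 rats for Bcat2, Dbt, Ivd, Mccc2 and Auh, as for 6.57% of all genes. It did so in 11 of 12 rats for Bckdhb and Mccc1 and in 10 of 12 for Bckdha and Hibadh. For Bckdk it did so in 4 of 12, that is in 3 of 3 rats after 2 days, 1 of 3 after 10 days and 0 of 3 after 20 and after 30 days.

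**Figure D2:**
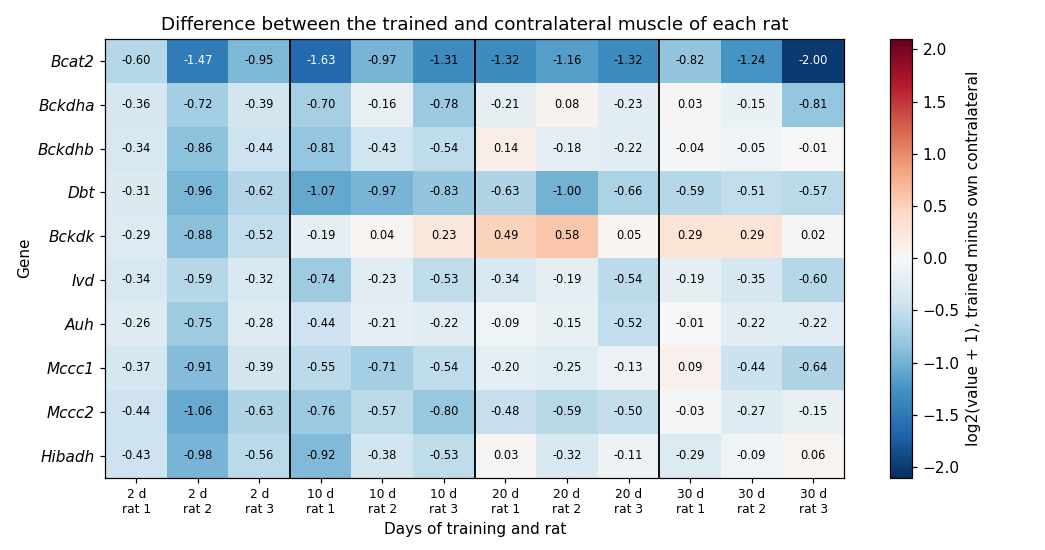
Difference in log2(value plus 1) between the trained and the contralateral muscle of each of 12 rats (columns, grouped by days of training) for the 10 enzymes (rows). Blue cells are lower in the trained muscle. Bcat2 is lower in all 12 rats, rat 2 of the 2-day group has the most negative value of its group for each gene, and Bckdk is blue in all 3 rats at 2 days, in 1 of 3 at 10 days and in none later.

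Bcat2 (chr1:101554642-101572081, + strand, Rnor_6.0, 1 protein-coding transcript) had the largest decrease of the 10 at each time point. The 12 contralateral muscles held 27.2 to 56.4 (median 41.8). The trained muscles held 25.1, 19.8 and 21.9 after 2 days, 12.5, 21.5 and 12.97 after 10 days, 16.04, 19.7 and 16.4 after 20 days and 14.9, 14.7 and 10.3 after 30 days. Every trained muscle was thus below every control, and the 30-day mean of 13.3 ± 2.57 (SD, n = 3) stood beside 41.0 ± 7.10 (n = 12). Genes with all 3 trained muscles below all 12 controls made up 6.18%, 8.15%, 4.81% and 6.08% of those tested at 2, 10, 20 and 30 days. The share with every trained muscle of all time points below every control was not computed. Bcat2 changed by -0.84 ± 0.16 (SE, adjusted p = 3.2e-04) on the log2 scale after 2 days, -1.36 (adjusted p = 7.5e-07) after 10 days, -1.18 (adjusted p = 8.9e-06) after 20 days and -1.55 ± 0.16 (adjusted p = 2.4e-07) after 30 days. At 30 days 21 of the 11196 genes had a lower log2 fold change than Bcat2, and at 10 days 29 had.

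Bcat1, the cytosolic aminotransferase that does the same reaction outside the mitochondria, was the higher in trained muscle. It was scarce, at 0.20 to 0.41 in the contralateral muscles (median 0.28), and trained muscles held 0.64, 1.96 and 1.52 after 2 days, 3.15, 1.85 and 1.61 after 10 days, 1.35, 1.07 and 1.24 after 20 days and 0.81, 0.82 and 0.69 after 30 days. All 12 trained muscles were above all controls, and the share of all genes with such a separation upwards was not computed. Since every control was under the minimum of 1, the gene passed the filter on low values through trained muscles alone and had to be higher in some of them to be tested, so the p-values that follow are no independent support for that direction. With no filter on low values the 4 time points were called higher as well. The log2 fold changes were 0.83 (adjusted p = 2.5e-05), 1.27 (adjusted p = 5.0e-08), 0.77 (adjusted p = 8.3e-05) and 0.45 (adjusted p = 0.013). The last did not pass with the animal as a block (adjusted p = 0.105) or without rat 1 (adjusted p = 0.0546) or rat 2 (adjusted p = 0.0657) of that group. Even so Bcat2 stayed the more abundant: the ratio of Bcat2 to Bcat1 was 110 to 279 in controls and at its lowest 3.98 to 11.6, after 10 days.

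The subunits of the dehydrogenase complex had measured changes of unlike size, and the differences between subunits were not tested. Dbt (chr2:219563783-219592651, + strand), the E2 core that carries the acyl group, had 16.5 to 20.96 in the controls (median 18.7). Its trained muscles had 13.4, 9.28 and 12.2 after 2 days, 9.16, 7.93 and 9.77 after 10 days, 11.7, 8.84 and 12.9 after 20 days and 11.4, 13.1 and 12.03 after 30 days. All 12 were below all controls, and the share of all genes with such a full separation was not computed. The log2 fold changes were -0.65 ± 0.10 (adjusted p = 4.1e-05), -0.98 (adjusted p = 1.2e-07), -0.70 (adjusted p = 2.3e-05) and -0.57 (adjusted p = 3.0e-04), and passed in each alternative tried.

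Bckdhb (chr8:91464229-91656135, + strand), the beta subunit of E1, had 50.7 to 80.9 in controls (median 66.4). Trained muscles had 52.1, 44.0 and 48.9 after 2 days, 45.3, 50.9 and 45.8 after 10 days, 61.9, 49.9 and 52.3 after 20 days and 57.2, 70.9 and 50.4 after 30 days. The groups overlapped at every time point, by 1 trained muscle at 2 and at 10 days and by 2 later. It fell after 2 days (-0.42 ± 0.12, adjusted p = 0.0124, not passed without rat 2, where it was -0.36 with adjusted p = 0.118) and 10 days (-0.45, adjusted p = 0.0074). At 20 days (-0.25, adjusted p = 0.16) and 30 days (-0.14, adjusted p = 0.473) it did not pass.

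Bckdha (chr1:82423277-82452282, - strand), the alpha subunit of E1 and the target of the kinase, had 37.8 to 62.4 in controls (median 52.0). Trained muscles had 40.4, 37.5 and 42.1 after 2 days, 31.2, 46.2 and 32.6 after 10 days, 45.9, 57.4 and 35.6 after 20 days and 38.7, 42.3 and 29.1 after 30 days. These values overlapped the controls at each time point. It fell at 10 days (-0.48 ± 0.14, adjusted p = 0.0122) and 30 days (-0.48, adjusted p = 0.0182), with the losses under other settings given above, and lay at -0.16 (adjusted p = 0.473) after 20 days.

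The ratio of E2 to E1 beta within a muscle (Dbt over Bckdhb) was 0.234 to 0.360 in the controls. In trained muscles it was 0.211 to 0.257 after 2 days, 0.156 to 0.213 after 10 days, 0.177 to 0.247 after 20 days and 0.185 to 0.239 after 30 days, and it lay below the rat's own contralateral muscle in 9 of the 9 rats trained for 10 days or longer. Dld, the E3 subunit that this complex shares with pyruvate and 2-oxoglutarate dehydrogenase, took another course. It lay at 92.9 to 122 in controls and passed only after 2 days (-0.44 ± 0.11, adjusted p = 0.0042), and not without rat 2 (-0.27, adjusted p = 0.13). After 30 days its 3 trained values of 123 to 140 were all above the controls (0.29, adjusted p = 0.0666). The share of all genes with such a separation upwards was not computed. For Dld the 30-day trained muscles stood above the 2-day trained muscles by 0.72 ± 0.14 (adjusted p = 0.00115).

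**Figure D3:**
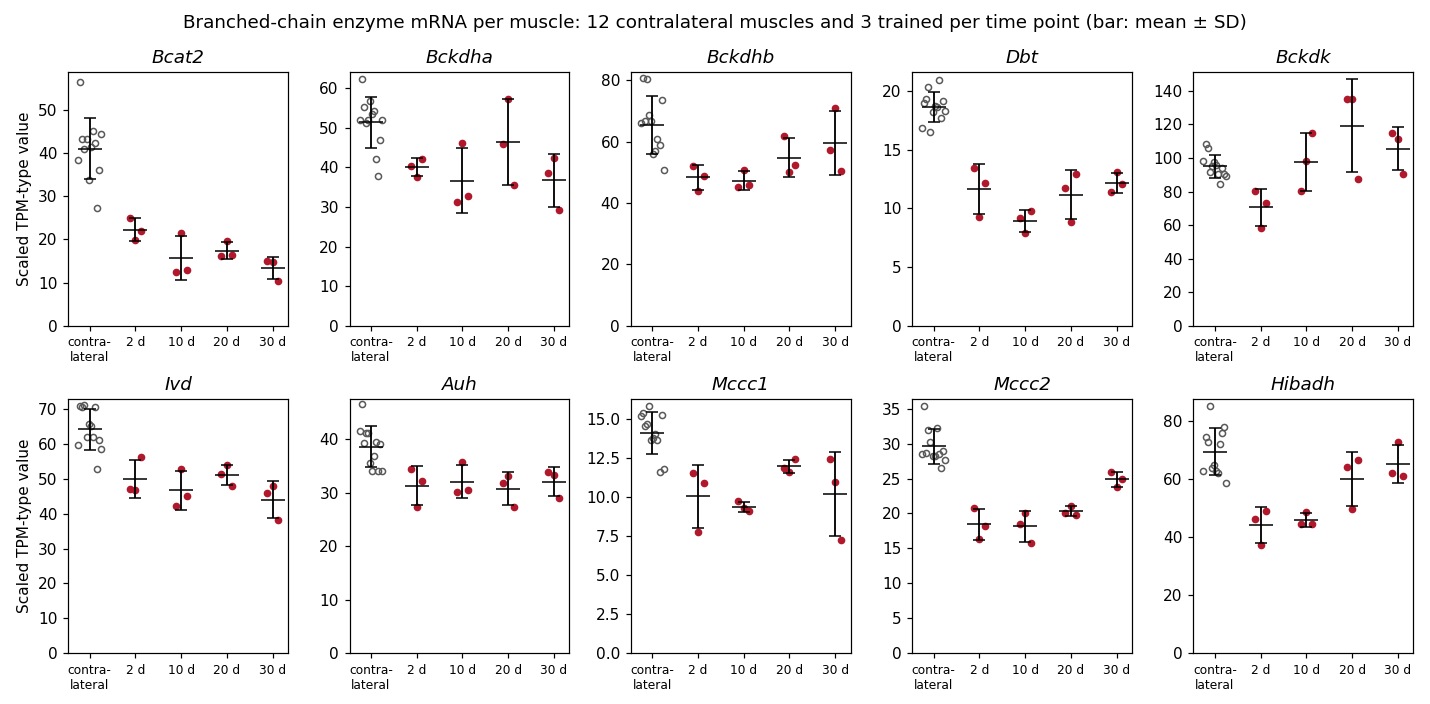
Scaled TPM-type value (y axis, from 0) of each of the 10 enzymes in the 12 contralateral muscles (open grey points) and in 3 trained muscles per time point (filled red points). Horizontal bars and whiskers are the mean and SD. All trained points of Bcat2, Dbt and Mccc2 lie below the lowest control point, and all 3 points of Bckdk do so at 2 days only.

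Bckdk (chr1:199351628-199356882, + strand), the kinase that holds the complex inactive, did not keep to the pattern of the enzymes. Control muscles had 84.3 to 108 (median 94.6). Trained muscles had 80.2, 58.4 and 73.2 after 2 days, 80.1, 98.0 and 115 after 10 days, 135, 135 and 87.2 after 20 days and 115, 111 and 90.8 after 30 days. All 3 were below every control after 2 days, and 2 of 3 were above every control after 20 and after 30 days. Only the decrease at 2 days passed (-0.43 ± 0.12, adjusted p = 0.0102), and not without rat 2 (-0.30, adjusted p = 0.166). The later changes were 0.03, 0.30 (adjusted p = 0.0897) and 0.14 (adjusted p = 0.448). That at 20 days was 0.51 with an adjusted p of 0.0059 when the third rat was left out. One of its 2 protein-coding transcripts gave 93.7% to 98.1% of the gene's value in every muscle, so the sum followed 1 transcript.

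The mRNA of the kinase stood higher relative to that of its target from 10 days on. Bckdk itself passed at none of the later times, while Bckdha was lower at 10 and 30 days. The ratio of Bckdk to Bckdha, which no scaling of a muscle can alter, was 1.66 to 2.48 in the 12 contralateral muscles (1.87 ± 0.217). After 2 days it was 1.56 to 1.98, within or just below that range, and after 10, 20 and 30 days it was 2.12 to 3.51, 2.35 to 2.95 and 2.63 to 3.12. The log2 ratio differed from the controls by -0.09 at 2 days (adjusted p = 0.374) and by 0.52, 0.46 and 0.64 at the later times (adjusted p = 0.0088 each), by an exact two-sided permutation test over muscles adjusted over the 4 time points. The smallest p that 455 arrangements allow is 0.0022, and the test takes no account of the animals that trained and control muscles share. In each of the 9 rats trained for 10 days or longer the trained muscle had the higher ratio. The test was chosen after the values were seen. Ppm1k, the phosphatase that reverses the kinase, lay at 1.57 to 4.67 in controls and 1.66 to 3.96 in trained muscles, and passed at no time point (-0.19, -0.43, -0.34 and -0.45). With the animal as a block it passed at 20 days (-0.59, adjusted p = 0.0168).

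**Figure D4:**
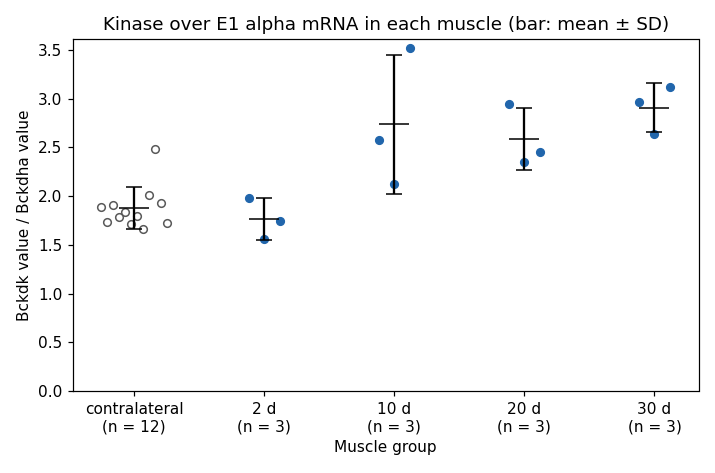
Ratio of the Bckdk to the Bckdha value (y axis, from 0, no unit) in each muscle, for 12 contralateral muscles (open points) and 3 trained muscles at each time point (filled points), with mean and SD. Trained muscles lie at 1.56 to 1.98 after 2 days and at 2.63 to 3.12 after 30 days, where all 3 are above the highest control of 2.48.

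In the leucine chain, Ivd (chr3:110669312-110690174, + strand) makes the first oxidation after the complex. Its controls had 52.7 to 71.2 (median 63.7). Trained muscles had 47.1, 46.7 and 56.4 after 2 days, 42.3, 52.9 and 44.98 after 10 days, 51.3, 54.0 and 48.0 after 20 days and 46.0, 48.0 and 38.1 after 30 days. One muscle at each of the first 3 time points overlapped the controls, and none did after 30 days. It fell at all 4, by 0.35 (adjusted p = 0.0092, or 0.0909 without rat 2), 0.45 (adjusted p = 0.00118), 0.32 (adjusted p = 0.0225) and 0.54 (adjusted p = 4.0e-04) on the log2 scale.

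Mccc1 and Mccc2 encode the 2 subunits of methylcrotonyl-CoA carboxylase, the biotin enzyme that follows. Mccc1 (chr2:122550775-122690618, - strand), the biotin-carrying alpha subunit, had 11.6 to 15.9 in controls. Its trained values were 11.5, 7.73 and 10.9 after 2 days, 9.74, 9.28 and 9.10 after 10 days, 11.8, 11.6 and 12.4 after 20 days and 12.4, 10.9 and 7.23 after 30 days. All 3 were below the controls at 2 and 10 days but not later. It fell after 2 days (-0.47, adjusted p = 0.0049, or -0.31 with adjusted p = 0.133 without rat 2), 10 days (-0.54, adjusted p = 0.00137) and 30 days (-0.46, adjusted p = 0.008), and lay at -0.22 (adjusted p = 0.213) after 20 days.

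Mccc2 (chr2:30175018-30246011, - strand), the beta subunit, had 26.5 to 35.4 in controls (median 28.6). Its trained values were 20.8, 16.4 and 18.2 after 2 days, 18.5, 20.1 and 15.8 after 10 days, 20.0, 21.1 and 19.9 after 20 days and 25.99, 23.8 and 24.9 after 30 days. Each trained muscle was below each control. The share of all genes with such a full separation was not computed. It fell by 0.66 (adjusted p = 5.7e-06), 0.68 (adjusted p = 2.9e-06) and 0.52 (adjusted p = 1.4e-04) at the first 3 time points, and was at -0.24 ± 0.09 (adjusted p = 0.0593) after 30 days.

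The 2 transcripts of the gene differed at 30 days. The protein-coding transcript had 25.1 to 30.3 in controls and 17.98 to 22.1 after 30 days, and taken alone it fell by 0.42 (adjusted p = 7.4e-04). The retained-intron transcript, which is not annotated to make protein, had 0.76 to 5.11 in controls and 3.86 to 6.91 after 30 days. Its share of the gene's value was 15.1% to 27.8% after 30 days, above the 2.64% to 14.4% of all 12 controls, and 0.42% to 11.2% at the other 3 time points. This was seen after the values were known and the share was not tested.

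Auh (chr17:12310214-12405206, + strand), the hydratase that comes next in the leucine chain, had 34.0 to 46.5 in controls (median 39.1). Its trained values were 34.4, 27.3 and 32.2 after 2 days, 30.1, 35.6 and 30.4 after 10 days, 31.9, 33.1 and 27.2 after 20 days and 33.8, 33.3 and 29.1 after 30 days. They were small decreases that overlapped the controls by 1 muscle at 2 and 10 days and by none later. The changes lay between -0.26 and -0.32 at all 4 time points and passed at 2 days (adjusted p = 0.0286) and 20 days (adjusted p = 0.0238). The 2-day call did not hold without rat 2 (-0.20, adjusted p = 0.276) or rat 3 (-0.32, adjusted p = 0.0676).

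Hibadh (chr4:82604373-82702430, - strand), the 3-hydroxyisobutyrate dehydrogenase of the valine chain, had 58.5 to 85.0 in controls (median 68.4). Its trained values were 46.3, 37.2 and 48.7 after 2 days, 44.3, 48.6 and 44.5 after 10 days, 64.1, 49.4 and 66.6 after 20 days and 61.9, 72.7 and 60.8 after 30 days. The first 2 groups lay below all controls, and the last lay within them. It fell at 2 days (-0.64 ± 0.11, adjusted p = 1.2e-04) and 10 days (-0.58, adjusted p = 3.5e-04), and was at -0.21 (adjusted p = 0.205) and -0.08 (adjusted p = 0.651) afterwards.

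The 30-day and 2-day changes were compared directly to ask which enzymes altered their course. Bcat2 was lower still after 30 days, by 0.71 ± 0.20 (adjusted p = 0.0191), 1 of 10 members where 7.91% of all genes were lower. Bckdk (0.58 ± 0.16, adjusted p = 0.0136), Hibadh (0.56 ± 0.14, adjusted p = 0.0093) and Mccc2 (0.42 ± 0.11, adjusted p = 0.0132) were higher, where 7.07% of all genes were. None of the 4 passed with the animal as a block, where the adjusted p was 0.555, 0.0633, 0.149 and 0.0995, and that fit called 163 genes lower and 151 higher in all. With time-matched controls none passed either (adjusted p = 0.589, 0.0731, 0.174 and 0.0669). On the protein-coding transcript alone the Mccc2 difference was 0.19 (adjusted p = 0.237), which is no longer a call. Without rescaling, none of the 3 increases passed (0.24, 0.22 and 0.09 for Bckdk, Hibadh and Mccc2, adjusted p = 0.269, 0.221 and 0.663). On that scale the median difference over all genes was itself -0.27. Without rat 2 of the 2-day group the 3 increases no longer passed (Bckdk 0.45, adjusted p = 0.114, Hibadh 0.44, adjusted p = 0.0858, and Mccc2 0.34, adjusted p = 0.0984). That of Bckdk was also lost without rat 1 (0.51, adjusted p = 0.0577) or rat 2 (0.54, adjusted p = 0.0532) of the 30-day group, and that of Hibadh without rat 2 of it (0.48, adjusted p = 0.0535). The Bcat2 decrease did not without rat 3 of the 30-day group (-0.55, adjusted p = 0.12), nor without rat 1 (-0.63, adjusted p = 0.0577) or rat 3 (-0.72, adjusted p = 0.0528) of the 2-day group. For the other 6 the difference lay between -0.18 for Ivd and 0.28 for Bckdhb and did not pass.

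Of 23 other genes of the pathway 22 passed the filter (Abat, a mitochondrial transaminase, did not). They were lower in 15, 15, 8 and 5 cases at 2, 10, 20 and 30 days, where 13.5%, 13.3%, 9.64% and 9.46% of all genes were. Higher were 1, 1, 1 and 2, beside 1728, 1746, 1314 and 1245 of all 11196 genes tested. Bcat1, which passed the filter through trained muscles alone, is the 1 at 2, 10 and 20 days and 1 of the 2 at 30 days. Its calls are no independent support for an increase. The medians of the list were -0.45, -0.36, -0.12 and -0.15. Acadsb, the dehydrogenase that does for isoleucine what Ivd does for leucine, fell at all 4 time points (-0.79, -1.10, -1.16 and -1.05, adjusted p from 4.1e-05 to 0.00167), at 2 days not without rat 2 (-0.60, adjusted p = 0.0532). Aldh6a1, the last dehydrogenase of the valine chain, did so as well (-0.89, -0.97, -0.90 and -0.71, adjusted p from 3.8e-07 to 5.6e-05). Echs1, the short-chain enoyl-CoA hydratase, fell by 0.75, 0.94, 0.48 and 0.44 and Pcca, of propionyl-CoA carboxylase, by 0.68, 0.67, 0.45 and 0.57. With the animal as a block neither passed at 20 days (adjusted p = 0.15 and 0.0542) or at 30 days (adjusted p = 0.534 and 0.138). Echs1 also lost its call at 20 days without any 1 of the 3 rats and at 30 days without rat 1 or rat 3, and Pcca at 20 days without rat 1 or rat 2 (adjusted p from 0.064 to 0.328). Hadh, which also serves fatty acid breakdown, and Mmut, which serves propionate breakdown, were among the largest decreases at 2 days (-0.88 and -0.83) and lay at 0.12 and -0.28 after 30 days without passing. Mcee, the epimerase of the same propionate route, went from -0.80 at 2 days to 0.32 at 30 days (adjusted p = 0.0452, or 0.226 with the animal as a block, and 0.152 and 0.235 without rat 1 or rat 2). Slc25a44, the mitochondrial carrier for branched-chain amino acids, lay at -0.03, -0.24, -0.22 and -0.15 and passed at no time point.

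The medians of 2 neighbouring lists ended above 0 at 30 days (0.21 and 0.14), or at -0.01 and -0.06 on the values as deposited, while that of the branched-chain enzymes was -0.36, or -0.57 as deposited. Of 14 TCA cycle genes 12, 5, 1 and 0 were lower and 0, 0, 0 and 3 higher at the 4 time points, with medians of -0.35, -0.22, 0.06 and 0.21. Beside this and the next list, 13.5%, 13.3%, 9.64% and 9.46% of all genes were lower. The genes that were higher numbered 1728, 1746, 1314 and 1245 of 11196. Sucla2 and Suclg2, subunits of succinyl-CoA ligase, were lower at 2 days (-0.56 and -0.50) and 10 days (-0.40 and -0.45), and Suclg2 at 20 days (-0.27, adjusted p = 0.0319, or 0.138 with the animal as a block, and 0.246 and 0.0655 without rat 2 or rat 3). The 10-day call of Sucla2 was lost without rat 1 or rat 2 (adjusted p = 0.0652 and 0.0637). Sdhb (0.37, adjusted p = 0.0126) and Idh3a (0.36, adjusted p = 0.0294) rose at 30 days, but not with the animal as a block (adjusted p = 0.149 and 0.178). Sdhb did not pass without rat 2 (adjusted p = 0.111), nor Idh3a without any 1 of the 3 rats (adjusted p from 0.0604 to 0.12). On the values as deposited 0 TCA cycle genes were higher at 30 days. Of 10 genes of the related pyruvate and 2-oxoglutarate dehydrogenases, their kinases and phosphatases, 4, 1, 0 and 0 were lower and 0, 2, 0 and 1 higher, with medians of -0.31, -0.11, 0.09 and 0.14. Pdk1 (-0.57) and Pdha1 (-0.51) were the largest decreases at 2 days and Pdk2 (-0.47) the one at 10 days, when Pdk4 (1.09, adjusted p = 0.0324) and Pdp2 (0.48, adjusted p = 0.0281) rose. Pdhb rose at 30 days (0.34, adjusted p = 0.0435). With the animal as a block Pdk1 at 2 days, Pdk2 and Pdk4 at 10 days and Pdhb at 30 days did not pass (adjusted p = 0.0659, 0.0966, 0.523 and 0.0627). Each of these calls and that of Pdp2 was lost with at least 1 trained muscle left out, to an adjusted p between 0.0526 and 0.165. The difference between the branched-chain enzymes and either list was not tested.

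**Figure D5:**
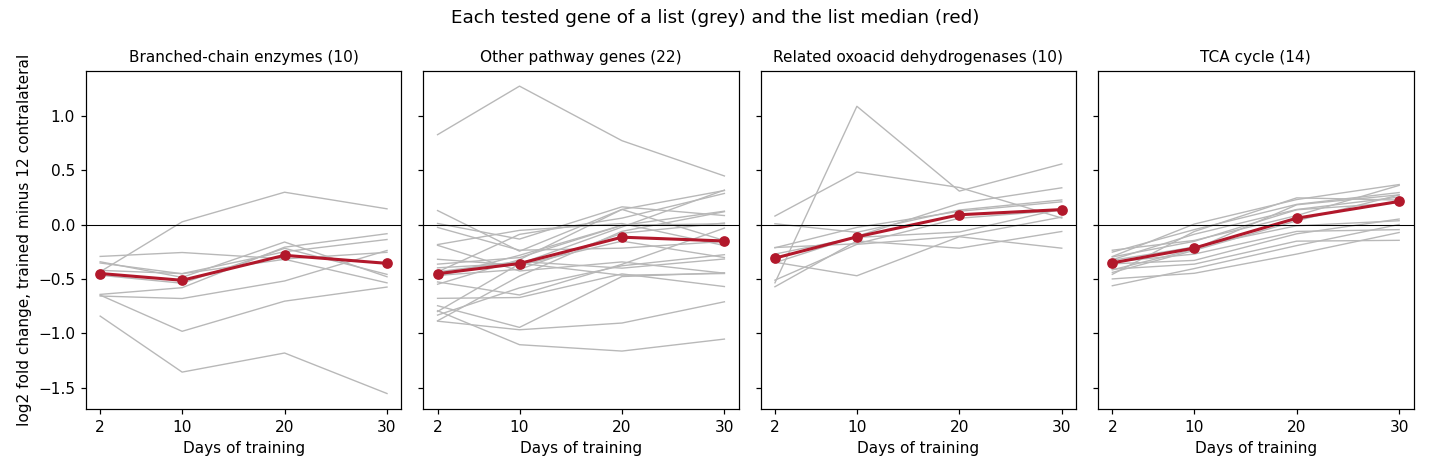
Log2 fold change (y axis, trained minus the 12 contralateral muscles) against days of training (x axis) for each tested gene (grey lines) and the list median (red) in 4 lists. The median of the 10 branched-chain enzymes is -0.45, -0.51, -0.28 and -0.36, and that of the TCA cycle genes ends at 0.21 (-0.01 on the values as deposited).

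Genes that handle the amino group split. Glul, which makes glutamine from glutamate, fell at 10, 20 and 30 days (-1.24, -1.69 and -1.58, adjusted p from 1.4e-09 to 1.2e-07). It passed at 2 days too with the animal as a block (-0.47, adjusted p = 0.0168, against -0.31 with adjusted p = 0.0732). Gpt2, the mitochondrial alanine aminotransferase, fell at all 4 time points (-0.43, -1.42, -1.46 and -1.47). The cytosolic form Gpt fell at 2 days (-0.77) and at 10 days (-0.40, adjusted p = 0.0346, or 0.138 with the animal as a block, and 0.283 and 0.05 without rat 1 or rat 3). The 2-day call of Gpt2 was lost without rat 2 (-0.33, adjusted p = 0.192). The aspartate aminotransferases rose, Got1 by 0.62 and 0.87 at 20 and 30 days and Got2 by 0.36, 0.46 and 0.47 at 10, 20 and 30 days (at 10 days adjusted p = 0.00418, or 0.116 with the animal as a block). Over the 6 genes of this list 3, 4, 3 and 2 were lower and 0, 1, 2 and 2 higher, with medians of -0.35, -0.45, -0.12 and -0.10. Of 6 tested genes of leucine transport and sensing 3, 3, 4 and 3 were lower and none higher, with medians of -0.40, -0.45, -0.49 and -0.52. Beside both lists, 13.5%, 13.3%, 9.64% and 9.46% of all genes were lower. The genes that were higher numbered 1728, 1746, 1314 and 1245 of 11196. The transporters Slc43a1 (-0.84, -1.12, -0.91 and -1.25) and Slc7a8 (-0.52, -1.12, -0.76 and -0.82) fell at all 4 time points, Slc7a8 at 2 days not without rat 2 (-0.44, adjusted p = 0.104), and the leucine sensor gene Sesn1 fell by 0.86 at 2 days. Sesn1 was lower at 20 days too. That call was lost with the animal as a block (-0.40, adjusted p = 0.0675) and without rat 1 (adjusted p = 0.099) or rat 2 (adjusted p = 0.196). At 10 days Sesn1 gained a call with the animal as a block (-0.49, adjusted p = 0.0265).

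Among 8 regulators 2 were lower and 1 higher at each time point, with medians of -0.27, -0.17, -0.16 and -0.07. Klf15, a Krüppel-like factor known to drive branched-chain amino acid breakdown genes in muscle, had 6.71 to 18.5 in controls (median 9.85). Trained muscles had 8.06, 5.24 and 6.57 after 2 days, 5.10, 6.09 and 4.24 after 10 days, 6.70, 6.33 and 6.70 after 20 days and 6.32, 5.06 and 4.24 after 30 days. All but 1 trained muscle lay below all controls, and the trained muscle was the lower in 12 of 12 rats, as for 6.57% of all genes. It fell by 0.55 (adjusted p = 0.0319), 0.86 (adjusted p = 0.00133), 0.55 (adjusted p = 0.0427) and 0.85 (adjusted p = 0.00252), and with the animal as a block did not pass at 20 days (adjusted p = 0.155) or 30 days (adjusted p = 0.107). Its 2-day call was lost without rat 2 (-0.42, adjusted p = 0.25) or rat 3 (-0.56, adjusted p = 0.094), and its 20-day call without any 1 of the 3 rats (adjusted p from 0.0997 to 0.136). Ppargc1a, the coactivator of mitochondrial biogenesis, rose by 0.69 (adjusted p = 0.0287), 1.70, 1.03 and 1.41 (adjusted p from 5.3e-06 to 0.00214), from 1.61 to 4.24 in controls to as much as 20.2 in a 10-day muscle, and was above the contralateral muscle in 12 of 12 rats. Its 2-day call was lost without rat 1 (0.40, adjusted p = 0.245) or rat 2 (0.80, adjusted p = 0.0589). The share of all genes above the contralateral muscle in 12 of 12 rats was not computed. Ppard fell at 2 days (-0.41, adjusted p = 0.0325) and 30 days (-0.63, adjusted p = 0.00274, or 0.11 with the animal as a block), and the glucocorticoid receptor gene Nr3c1 at 10 days (-0.33, adjusted p = 0.0384) and 20 days (-0.35, adjusted p = 0.0352, or 0.0513 with the animal as a block). The calls of Ppard at 2 days and of Nr3c1 were lost when any 1 of several rats was left out (adjusted p from 0.0639 to 0.301).

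The 10 enzymes differed among themselves in how far they kept to their median course of -0.45, -0.51, -0.28 and -0.36. Mccc1 was nearest to it, with a root mean square difference of 0.06 over the 4 log2 fold changes, and Bckdk at 0.47 and Bcat2 at 0.88 were farthest. Among 3831 other genes with a mean value of at least 10, those nearest to the median course were Slc49a4 (0.03), Anapc16 (0.04), Park7 (0.05), Rbfox1 (0.05) and Lztr1 (0.06).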

How the data were processed

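RNA was measured in the trained and the contralateral tibialis anterior of 12 rats by poly-A RNA-seq, and the groups follow the labels. The authors aligned reads with STAR in Partek Flow to Rnor_6.0, quantified Ensembl transcripts, and deposited TPM-type values, the same total in each muscle, which keep no depth. A gene-level table with the authors' own fold changes and p-values was not used. Here a median-of-ratios factor per muscle (from 16230 transcripts above 0 in all muscles) divided the values, which were summed per symbol. Genes with at least 1 in at least 3 muscles were fitted as log2(value + 1) with limma 3.58.1 in R 4.3.3, as 12 controls and 3 muscles per trained group, with Benjamini-Hochberg adjustment over 11196 genes. That fit treats the 2 muscles of a rat as independent. The animal numbers in the labels pair them, and deviations from group means correlated within rats (median r over genes 0.174, 12 pairs, above 0.1 in 8) more than between rats (-0.10, 24 pairs), so the animal was a block in an alternative. Because each group was centred on its own mean, the 2 medians are tied. The negative value between rats is therefore no independent baseline. Of 276 muscle pairs, 0 held identical values. The fit was also run on simulated data, with changes planted in the 2-day trained group only and no filter on low values. These settings differ from the data, so the outcome is not given as support for the results.

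The 10 enzymes and the other lists were chosen with earlier results of these data known. Named were the enzymes, Bcat1, Dld, Ppm1k, Slc25a44, Klf15 and Ppargc1a, up to 3 other pathway genes and up to 2 genes of each further list per direction and time point with the largest change past the threshold, and the 5 genes nearest the median course. Alternatives were time-matched controls, the animal as a block, values as deposited, a pseudocount of 0.1, no filter, the transcript with the highest mean, an intensity trend, a threshold of 0.01, each trained muscle left out, and 1 control muscle left out. Col1a2, Ogdh and Pdk3 were not analysed here. Tables and plots used Python 3.11.15, numpy 2.4.6, pandas 2.3.3 and matplotlib 3.10.9.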

Additional observations from a re-analysis of the deposited data

Results flagged for a closer look

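For 4 of the 10 enzymes the 30-day trained muscles differed from the 2-day trained muscles by a direct test (limma, adjusted over all genes). The level of the shared controls cancels out of that test. The difference was -0.71 on the log2 scale for Bcat2, 0.58 for Bckdk, 0.56 for Hibadh and 0.42 for Mccc2. Of the 3 trained rats against 3, each 30-day muscle was below each 2-day muscle for Bcat2, and each was above each 2-day muscle for Bckdk, Hibadh and Mccc2. The 4 genes were picked by the test on these same muscles, so this separation is no further support for it. Of the 10 enzymes 1 was lower and 3 were higher, where 7.91% and 7.07% of all genes were. All 4 differences kept their sign with the animal as a block (-0.35, 0.76, 0.55 and 0.56), but none passed there or with time-matched controls. That of Mccc2 was 0.19 on its protein-coding transcript alone (adjusted p = 0.237). Without rescaling none of the 3 increases passed (0.24, 0.22 and 0.09), where the median over all genes was -0.27. No explanation of these differences was tested.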

How the results depend on the processing

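Of the 60 changes given for the 10 enzymes (10 genes in 6 comparisons), none changed direction while past the threshold under any alternative, and those of Bcat2 and Dbt at each time point kept their call. The replicate block by animal lowered the count of enzymes called lower from 5 to 3 at 20 days and from 5 to 2 at 30 days, and the counts for 30 against 2 days from 1 lower and 3 higher to 0 and 0. For the enzymes it changed no call beyond the 9 given above, and for the 33 other named genes 163 results kept their call, 31 lost it and 4 gained it. With single trained muscles left out, 903 results of those genes kept their call, 80 lost it and 7 gained it. Time-matched controls gave 3 lower at 20 days, 3 at 30 days, and 0 lower and 0 higher for 30 against 2 days. The values as deposited gave 4, 5, 3 and 9 lower at 2, 10, 20 and 30 days, and 2 lower and 0 higher for 30 against 2 days. A threshold of 0.01 gave 3 lower at 20 days, and 0 lower and 1 higher for 30 against 2 days. Leaving out single muscles, the control that stood apart included, gave 4 to 10 lower at 2 days, 6 to 9 at 10 days, 3 to 5 lower and 0 to 1 higher at 20 days, 3 to 6 lower at 30 days, and 0 to 1 lower and 0 to 3 higher for 30 against 2 days. The cause of these shifts was not tested.

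Over all genes, 1728 were higher and 1507 lower at 2 days, against 2132 and 731 on the values as deposited, and 906 to 1858 and 586 to 1638 with single trained muscles left out. At 10 days 1746 were higher and 1494 lower, against 2096 and 682 as deposited, with 896 lower under the block, 805 with time-matched controls and 908 without rat 1. At 20 days 655 were lower with time-matched controls, against 1079. At 30 days the block gave 807 higher and 570 lower, time-matched controls 649 and 472, and single omissions 827 to 993 and 617 to 829, against 1245 and 1059. For 30 against 2 days 791 were higher and 886 lower, against 250 and 3044 as deposited, 151 and 163 under the block, 154 and 135 with time-matched controls, and 361 to 983 and 354 to 1140 with single omissions. With a threshold of 0.01 the counts at 2, 10, 20 and 30 days fell to 824, 814, 534 and 556 lower, with 1134 higher at 2 days and 740 at 30 days, to 1516 lower (against 2277) for the mean of the trained groups, and to 380 higher and 402 lower for 30 against 2 days. The Bckdk to Bckdha ratio kept its calls at 10, 20 and 30 days with each trained muscle left out, a check added after seeing the data (adjusted p up to 0.044). The values keep no read counts, so what depth limits could not be computed from them.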
